A study of Mus musculus with 8 samples.

Results

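The genes described here are 10 markers of tissue-resident, perivascular macrophages: Cd163, Lyve1, Mrc1, F13a1, Folr2, Timd4, Cbr2, Gas6, Mertk and Pf4. They were taken by name from a table of 34866 mouse genes measured in epididymal white adipose tissue, a visceral fat depot of the mouse. All 10 were in the table, and 9 of them were among the 12480 genes with enough counts to be tested; Timd4 was not. Both groups were male mice with both copies of the aromatase gene Cyp19a1 flanked by loxP sites (Aromatase flox/flox). The 4 control libraries came from such mice alone, and the 4 knockout libraries from mice that also carried the aP2-Cre transgene (aP2-Cre;Aromatase flox/flox). The stated purpose was to find genes downstream of Cyp19a1 in fat that act on phosphorus metabolism. The aP2 promoter is that of Fabp4, a gene used by adipocytes and also by macrophages, so Cre activity need not be limited to adipocytes. Mice with the transgene alone were not analysed here, and an effect of the transgene cannot be told apart from that of the deletion. Age, strain and diet are not given in the sources used here, nor is it stated that each library is 1 animal, so the p-values measure the spread between these libraries.

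Resident macrophages of adipose tissue lie along vessels and between adipocytes, where they take up dead cells, serum proteins and debris. In mice they are commonly recognised by endocytic receptors such as the mannose receptor (Mrc1), Cd163 and Lyve1, and by the folate receptor Folr2. They differ from lipid-associated macrophages, which gather around dying adipocytes and carry Trem2, Gpnmb and Cd9. Macrophage identity depends on the transcription factor PU.1, encoded by Spi1, and resident cells also use the factor Maf.

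Library totals ranged from 1538427 estimated counts in control replicate 4 to 3053565 in knockout replicate 4. Levels are given in CPM, the share of a library's counts scaled to a common total. A count of 0 allows up to 3 counts, or 0.982 to 1.95 CPM according to library size, which covers counting error only. Cyp19a1 was at 2.003, 1, 5.017 and 1 estimated counts in control replicates 1 to 4 and at 0, 4, 2.08 and 1.592 in knockout replicates 1 to 4, so the deletion could not be checked. The adipocyte markers Adipoq and Plin1 were abundant in both genotypes (means of 2790 and 846 CPM among controls and 2850 and 819 CPM among knockouts). Of the 12 adipocyte genes examined, 10 were lower and 2 higher in the knockout, with a median log2 fold change of -0.14. Their sum was 61100 to 79400 CPM among controls and 51400 to 76000 CPM among knockouts. The 8 epididymis markers summed to at most 8.53 CPM in any library, and 4 of them were at 0 in every library. Mitochondrially encoded genes took 10.7% to 12.4% of the counts in the control and 8.7% to 10.1% in the knockout libraries; their part in the results below was not tested.

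No resident marker passed an adjusted p of 0.05 between the genotypes. In edgeR's quasi-likelihood test 0 of the 9 tested markers passed, where 21 of 12480 genes, or 0.168%, did so; at an unadjusted p under 0.05 it was 2 of 9, Mrc1 and F13a1, against 6.39% of all tested genes. DESeq2 passed 0 of 10, against 0.355% of the 14930 genes to which it gave an adjusted p. The log2 fold changes, knockout over control, lay between -0.19 for Cd163 and 0.38 for F13a1, with a median of 0.24 beside -0.0015 for all tested genes. They were positive for 5 of 9 markers and for 49.7% of all genes. The positive values belonged to F13a1, Mrc1, Folr2, Pf4 and Cbr2, and the other 4, Gas6, Mertk, Lyve1 and Cd163, lay just below 0. In every one of the 10 genes the control and knockout libraries overlapped in CPM; 4.21% of all tested genes did not overlap. In whole tissue the number of macrophages and the RNA per macrophage cannot be told apart in these levels.

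**Figure D1:**
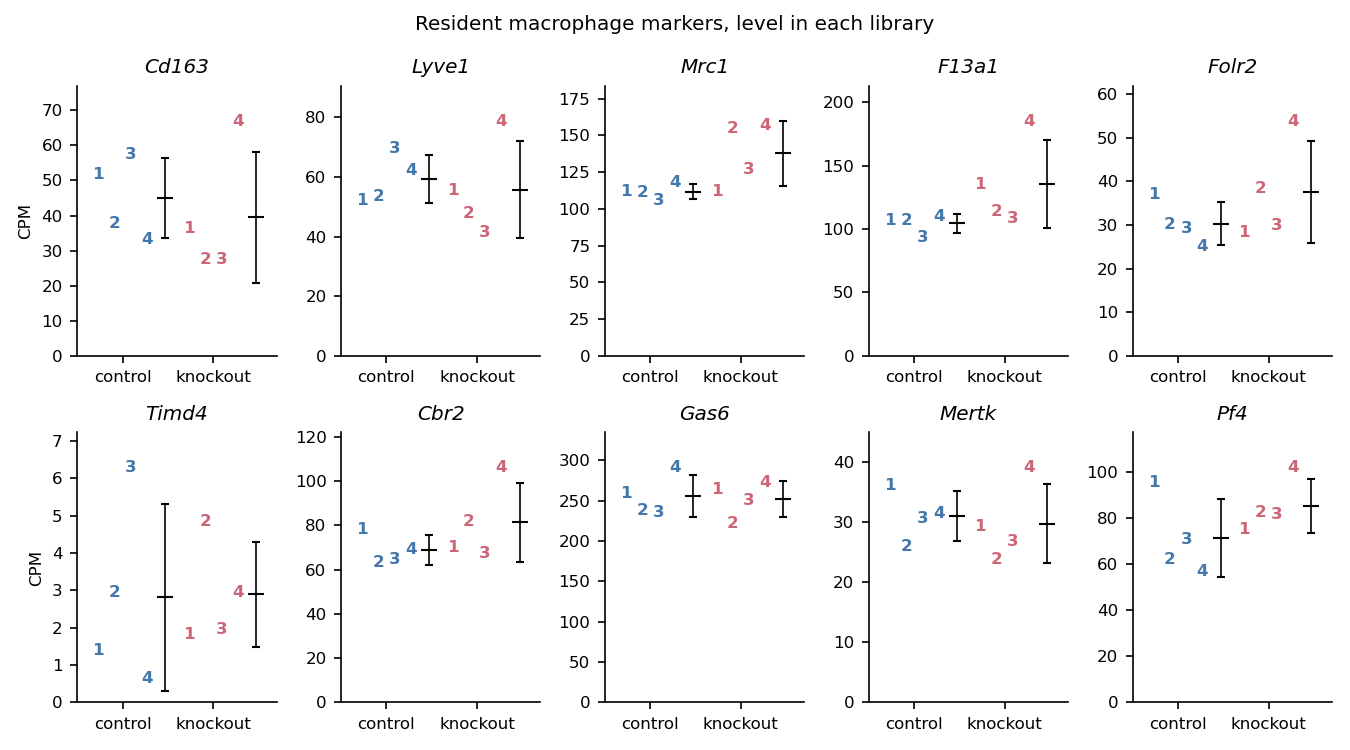
Level of each resident marker in every library, in CPM on a linear axis from 0; each digit is the replicate number of 1 library (blue control, red knockout), and the bar gives the mean and SD of 4 libraries. Knockout replicate 4 is the highest library for 8 of the 9 tested markers, and the groups overlap in every panel.

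The scavenger and endocytic receptors did not share 1 direction. Cd163, the receptor that clears haemoglobin bound to haptoglobin (chromosome 6, 124304656 to 124330527), was at 51.7, 37.7, 57.4 and 33.3 CPM in control replicates 1 to 4 and at 36.2, 27.4, 27.5 and 66.9 CPM in knockout replicates 1 to 4. The 3 lower knockout libraries included the lowest values of all 8, and the fourth was the highest of all. The group means were 45.0 ± 11.4 and 39.5 ± 18.7 CPM (SD, n = 4), and the log2 fold change was -0.19 (95% interval -0.87 to 0.49, edgeR adjusted p = 0.957). That interval reaches from 0.548-fold to 1.41-fold. When each library was left out in turn the log2 fold change lay between -0.58, without knockout replicate 4 (edgeR adjusted p = 0.594), and -0.05, without control replicate 3, knockout replicate 2 or knockout replicate 3.

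Lyve1, a hyaluronan receptor of resident macrophages and of lymphatic endothelium (chromosome 7, 110850607 to 110863239), was at 52.1, 53.6, 69.5 and 62.2 CPM among controls and 55.4, 47.6, 41.5 and 78.7 CPM among knockouts. As for Cd163, knockout replicates 2 and 3 were lowest and knockout replicate 4 highest. The means were 59.3 ± 8.13 and 55.8 ± 16.3 CPM (SD, n = 4; log2 fold change -0.08, 95% interval -0.48 to 0.32, edgeR adjusted p = 0.982). The 5 lymphatic endothelial genes examined, among them the lymphatic factor Prox1, summed to 50.3 to 103 CPM among controls and 46.4 to 99.0 CPM among knockouts, and none passed the threshold; the part of lymphatic vessels in the Lyve1 level was not tested.

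Mrc1, the mannose receptor CD206 (chromosome 2, 14229392 to 14332057), was at 112, 111, 106 and 118 CPM among controls and 112, 155, 127 and 157 CPM among knockouts. Knockout replicates 2 to 4 lay above all controls and knockout replicate 1 lay among them. The means were 112 ± 4.97 and 138 ± 22.1 CPM (SD, n = 4). The fold was 1.24 (log2 fold change 0.31, 95% interval 0.04 to 0.58), with an unadjusted p of 0.0276 and an adjusted p of 0.701 in edgeR. Folr2, the folate receptor beta (chromosome 7, 101839988 to 101857194), was at 37.0, 30.1, 29.2 and 25.0 CPM among controls and 28.4, 38.3, 29.9 and 53.8 CPM among knockouts. Only knockout replicates 2 and 4 exceeded the highest control. Its log2 fold change was 0.31 (95% interval -0.14 to 0.76, edgeR adjusted p = 0.91), and 0.07 without knockout replicate 4.

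The clotting, chemokine and reductase genes all had values above 0. F13a1 encodes the A subunit of coagulation factor XIII, a transglutaminase that crosslinks fibrin and matrix (chromosome 13, 36867178 to 37050244). It was at 107, 107, 93.7 and 110 CPM among controls and 135, 114, 108 and 185 CPM among knockouts. Knockout replicates 1, 2 and 4 were above all controls. The means were 104 ± 7.3 and 135 ± 34.9 CPM (SD, n = 4), a 1.3-fold value (log2 fold change 0.38, 95% interval 0.04 to 0.71, unadjusted p = 0.0297, edgeR adjusted p = 0.709). Without knockout replicate 4 the log2 fold change was 0.19.

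Pf4 encodes the chemokine CXCL4, made by platelets and their precursors as well as by macrophages (chromosome 5, 90772435 to 90773383). It was at 95.4, 62.3, 70.9 and 57.1 CPM among controls and 75.1, 82.7, 81.5 and 102 CPM among knockouts. The knockout libraries lay above 3 of the controls, while control replicate 1 lay among them (log2 fold change 0.25, 95% interval -0.10 to 0.59, edgeR adjusted p = 0.907). Its log2 fold change was 0.42 without control replicate 1, 0.16 without control replicate 4 and 0.15 without knockout replicate 4. The 10 platelet genes examined summed to 18.6 to 24.5 CPM among controls and 20.2 to 30.7 CPM among knockouts, below Pf4 alone in each library; 1 of them, Tubb1, was at 0 throughout. Cbr2, carbonyl reductase 2 (chromosome 11, 120729489 to 120732114), was at 78.3, 63.2, 64.6 and 69.2 CPM among controls and 70.1, 81.9, 67.1 and 106 CPM among knockouts. Knockout replicates 2 and 4 exceeded all controls (log2 fold change 0.24, 95% interval -0.08 to 0.57, edgeR adjusted p = 0.899). Without knockout replicate 4 its log2 fold change was 0.08.

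Promoters are shown for the 4 markers whose window held the letters GAGGAAG, a core recognised by PU.1, and, as an example of a window without them, for Cd163. Sequences are those of RefSeq on the GRCm38 build, the 250 bases before the transcription start on the gene's own strand, 5′ to 3′, with matches on either strand in capitals. A promoter was found for 9 of the 10 markers, all but Lyve1, and GAGGAAG or its reverse complement was in those of 4: Mrc1, F13a1, Cbr2 and Pf4. It was in 10.6% of all 32851 promoters of this length. F13a1 and Folr2 have 2 starts each; the F13a1 match is at the first, and neither Folr2 window holds one.
Mrc1, chr2:14229164-14229413, plus strand: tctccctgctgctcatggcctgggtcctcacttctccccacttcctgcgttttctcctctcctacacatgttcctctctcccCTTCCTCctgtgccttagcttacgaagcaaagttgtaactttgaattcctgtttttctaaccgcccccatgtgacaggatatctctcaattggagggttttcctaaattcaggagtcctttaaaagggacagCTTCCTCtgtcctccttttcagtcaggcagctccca
F13a1, chr13:37050245-37050494, minus strand: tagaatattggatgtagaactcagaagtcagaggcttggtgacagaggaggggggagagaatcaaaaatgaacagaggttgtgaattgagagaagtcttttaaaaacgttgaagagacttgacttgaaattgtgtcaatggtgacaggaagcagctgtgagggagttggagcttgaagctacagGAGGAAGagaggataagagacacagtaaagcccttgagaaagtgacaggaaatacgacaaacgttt
Cbr2, chr11:120732022-120732271, minus strand: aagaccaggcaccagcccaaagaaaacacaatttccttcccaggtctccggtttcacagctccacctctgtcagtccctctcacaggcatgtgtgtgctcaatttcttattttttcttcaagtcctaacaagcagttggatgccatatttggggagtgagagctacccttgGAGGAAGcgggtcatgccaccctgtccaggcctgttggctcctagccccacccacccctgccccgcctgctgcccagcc
Pf4, chr5:90772185-90772434, plus strand: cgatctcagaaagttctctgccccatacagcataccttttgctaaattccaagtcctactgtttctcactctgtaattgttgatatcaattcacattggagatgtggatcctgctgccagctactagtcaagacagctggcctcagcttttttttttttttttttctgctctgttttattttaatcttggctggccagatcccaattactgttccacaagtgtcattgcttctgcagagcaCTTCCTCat
Cd163, chr6:124304401-124304650, plus strand: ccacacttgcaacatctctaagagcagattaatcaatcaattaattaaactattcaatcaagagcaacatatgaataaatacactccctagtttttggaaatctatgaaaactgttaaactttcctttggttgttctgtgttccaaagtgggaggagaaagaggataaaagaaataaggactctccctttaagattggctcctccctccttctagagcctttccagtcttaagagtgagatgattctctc
Mrc1 had 2 matches, the nearer one 36 to 30 bases before the start, and Pf4 had its match at 9 to 3 bases before the start. The matches of F13a1 and Cbr2 lay 66 to 60 and 79 to 73 bases before their starts. The letters TGCTGAC, part of the Maf recognition element, were found in 1 marker, Timd4, and in 3.81% of all promoters. The letters TTGCNNCAA, searched for as a C/EBP site, were found in 0 of the 9 and in 1.74% of all promoters. They are not the palindrome recognised by C/EBP, as their reverse complement, TTGNNGCAA, is a different string. The presence of C/EBP sites was therefore not tested. The PU.1 and Maf matches are matches of letters and not measured binding.

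The genes for recognising dying cells were the closest to 0. Gas6 is a secreted protein that bridges phosphatidylserine on dying cells to Mertk and its relatives Axl and Tyro3, and stromal and endothelial cells make it too (chromosome 8, 13465374 to 13494490). Its level was 259, 238, 235 and 291 CPM among controls and 264, 222, 250 and 273 CPM among knockouts. The 2 groups covered nearly the same range, and this was the 1 tested marker whose highest library was a control, replicate 4. The log2 fold change was -0.02 (edgeR adjusted p = 0.992), and its 95% interval, 0.833-fold to 1.17-fold, was the narrowest of the 9. The 12 stromal progenitor genes, from cells that also make Gas6, summed to 9060 to 9350 CPM among controls and 7930 to 8950 CPM among knockouts, and 0 of them passed in either tool; their part in the Gas6 level was not tested. A gene on the opposite strand that overlaps Gas6, Tmem255b, held 70 counts over all 8 libraries together.

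Mertk, the receptor tyrosine kinase that Gas6 activates (chromosome 2, 128698956 to 128802894), was at 36.0, 25.9, 30.5 and 31.4 CPM among controls and 29.3, 23.8, 26.8 and 39.0 CPM among knockouts. Knockout replicates 1 to 3 lay below 3 of the controls and knockout replicate 4 lay above all of them (log2 fold change -0.06, 95% interval -0.45 to 0.34, edgeR adjusted p = 0.984). Timd4, the phosphatidylserine receptor Tim-4 (chromosome 11, 46810800 to 46844332), had 4, 7, 14 and 1 counts in control and 4, 12, 5 and 9 counts in knockout replicates 1 to 4. At this depth a difference was not detectable (2.81 ± 2.5 and 2.89 ± 1.39 CPM, SD, n = 4, two-sided exact permutation p = 0.943, where 0.0286 is the smallest p that 4 against 4 libraries allow).

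Among 22 genes for the uptake of dying cells, which include Gas6, Mertk and Timd4, 16 were tested in edgeR and 0 passed, nor did any in DESeq2. In edgeR 1 of the 16 had an unadjusted p under 0.05, near the 6.39% of all tested genes. That was Itgb5, the integrin subunit beta 5 (64.7 ± 11.5 and 86.7 ± 21.6 CPM, SD, n = 4; edgeR adjusted p = 0.743, log2 fold change 0.41). The other bridging proteins Pros1 and Mfge8 had log2 fold changes of 0.21 and 0.09, and the receptors Axl and Stab1 of 0.01 and -0.04. The median over the 16 was 0.05. Tyro3 averaged 1.42 and 1.56 CPM and was not tested. In the handling of haemoglobin and iron, where Cd163 acts, 14 of 15 genes were tested in edgeR and 0 passed, nor did any have an unadjusted p under 0.05; DESeq2 passed 0 as well. Their median log2 fold change was -0.01; Hmox1, the haem oxygenase, was at 0.45 and Slc40a1, the iron exporter, at 0.03. The 6 red-cell genes, mainly globins, summed to 2990 to 6640 CPM among controls and 2850 to 4850 CPM among knockouts, and their part in the Cd163 level was not tested. Of 14 hyaluronan genes, the ligand pathway of Lyve1, 7 were tested in edgeR and 0 passed there or in DESeq2, with 2 at an unadjusted p under 0.05 in edgeR, beside 6.39% of all tested genes. These were the hyaluronan receptor Cd44 (34.3 ± 8.36 and 51.8 ± 2.99 CPM, SD, n = 4; edgeR adjusted p = 0.432) and the hyaluronan-binding proteoglycan Vcan (16.4 ± 3.83 and 25.2 ± 3.94 CPM, SD, n = 4; edgeR adjusted p = 0.603). In both genes all 4 knockout libraries exceeded all 4 controls, where 4.21% of all tested genes did not overlap in either direction, at log2 fold changes of 0.57 and 0.62, while Lyve1 was at -0.08.

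Other genes used to recognise resident macrophages gave a picture like that of the 10. Of 25 such genes 22 were tested in edgeR and 0 passed there or in DESeq2. Values were positive for 16 of the 22, beside 49.7% of all tested genes, and the median log2 fold change was 0.16. At an edgeR unadjusted p under 0.05 there were 2 of 22, beside 6.39% of all tested genes. These were the endothelin receptor gene Ednrb at 0.33 and the complement gene C1qb at 0.34. The transcription factor gene Maf was at -0.05. The lectin receptor genes Cd209f, Cd209g and Cd209d were at 0.22, 0.24 and 0.29, and Siglec1, the sialoadhesin of resident macrophages, was lowest at -0.75, from 7.87 to 4.66 CPM. Without knockout replicate 4 the median of these genes went from 0.16 to -0.03.

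General and lipid-associated macrophage markers had larger median values. Of 10 general markers 9 were tested and all 9 had positive values, with a median log2 fold change of 0.55. In edgeR 1 of them passed, where 0.12% of all tested genes passed as higher. That was Cd68, a lysosomal glycoprotein (36.3 ± 10.1 and 80.6 ± 10.8 CPM, SD, n = 4; edgeR adjusted p = 0.0156, log2 fold change 1.13). The receptor Csf1r, on which macrophage survival depends, was at 0.30 and the adhesion receptor Adgre1, known as F4/80, at 0.46. Neither passed. Of the 9 tested, 8 had an edgeR unadjusted p under 0.05, beside 6.39% of all tested genes. In 7 of the 9, Csf1r and Adgre1 included, the genotypes did not overlap in CPM, beside 4.21% of all tested genes. Spi1, the gene of PU.1, was at 18.2 ± 2.95 CPM among controls and 31.9 ± 8.23 CPM among knockouts (SD, n = 4; edgeR adjusted p = 0.333, log2 fold change 0.79). Fcgr1, the high-affinity IgG receptor, was below the low-count filter at 4.79 ± 2.87 and 2.92 ± 0.933 CPM (SD, n = 4). Of 16 lipid-associated markers 4 passed, all higher in the knockout, against 0.12% of all tested genes: Mmp12, Lgals3, Lipa and Gpnmb, with log2 fold changes of 2.0, 0.96, 0.89 and 1.54. The list was not uniform: its median of 0.52 fell in a gap between Cd9 at 0.26 (edgeR adjusted p = 0.816) and Spp1 at 0.78. Values were positive for 14 genes and negative for 2, with Lpl lowest at -0.14. Trem2 was at 1.40 (edgeR adjusted p = 0.0657). With DESeq2 2 general and 6 lipid-associated markers passed, all higher. Of all genes with an adjusted p there, 0.355% passed in either direction. The lists were written with earlier results of these data known, so their direction is no independent evidence.

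Few markers of other cells passed the threshold. In edgeR 0 genes passed among those of monocytes (6 tested, summed level 138 to 144 CPM in control and 111 to 165 CPM in knockout libraries), dendritic cells (4 tested, 36.3 to 43.1 and 42.0 to 51.3 CPM) and mast cells (5 tested, 33.2 to 54.8 and 24.3 to 51.8 CPM). No unadjusted p in these 3 lists was under 0.05 in edgeR, and DESeq2 passed 0 of them as well. Lymphocyte and neutrophil genes summed to at most 30.3 and 16.4 CPM, with 1 gene of each tested in edgeR. DESeq2 ran without the low-count filter and gave a p-value to 9 lymphocyte and 4 neutrophil genes. None passed in either tool. DESeq2 can leave genes with few counts without an adjusted p, and such genes could not pass. Of 12 blood endothelial genes 0 passed in either tool; Vwf, the von Willebrand factor of endothelium, was at -0.69 (edgeR unadjusted p = 0.0361, adjusted p = 0.733). Of 7 tested mesothelial genes 0 passed and 0 had an unadjusted p under 0.05 in edgeR, and DESeq2 passed 0. Among 12 adipocyte genes 0 passed in edgeR and 1 in DESeq2, against 0.355% of all genes with an adjusted p there. That gene was Retn, which encodes the adipokine resistin (2390 ± 320 and 1530 ± 144 CPM, SD, n = 4; edgeR unadjusted p = 0.000146, adjusted p = 0.0731, log2 fold change -0.65). Retn also passed in edgeR without control replicate 4 or without the low-count filter. The part of these cells in the levels of the resident markers was not tested.

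**Figure D2:**
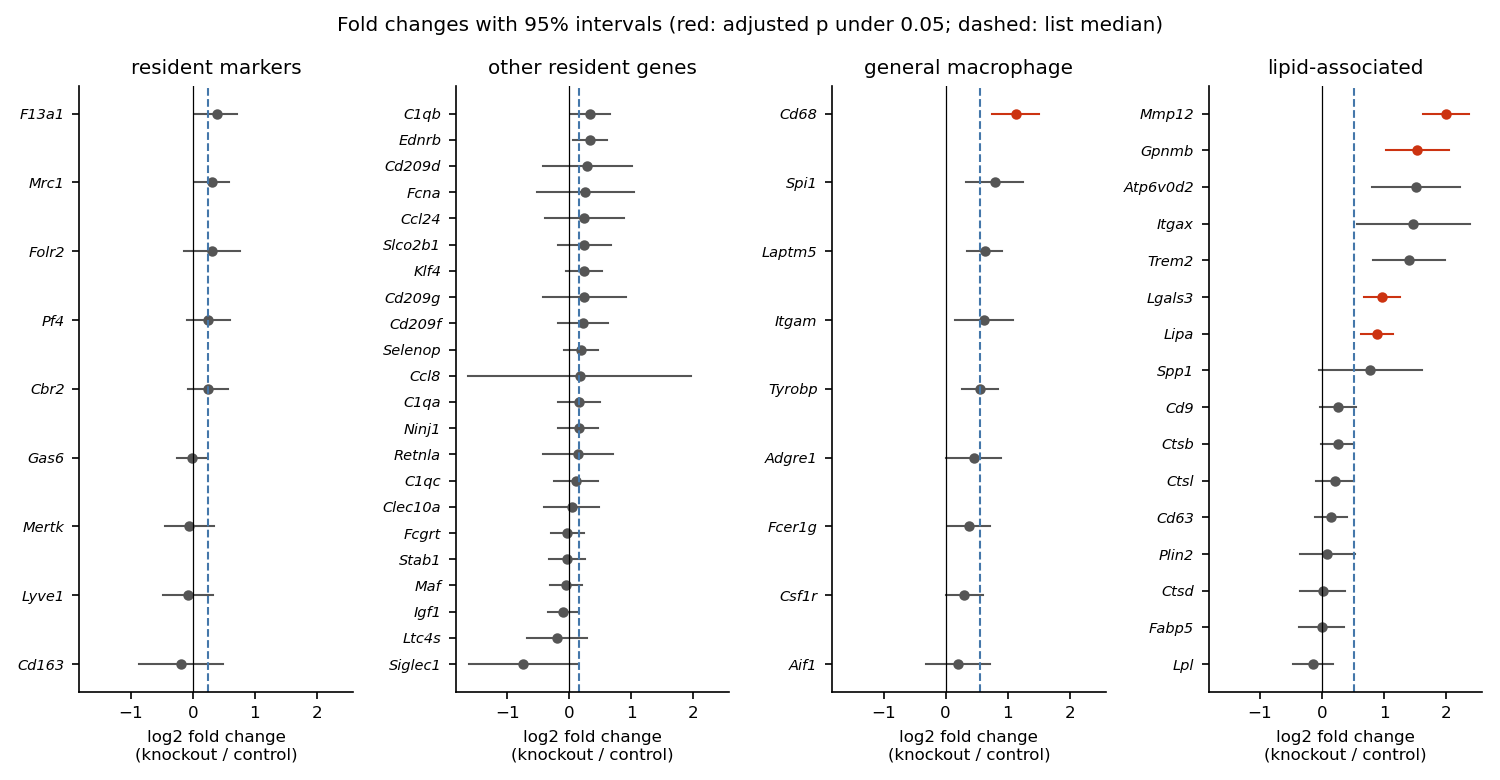
Log2 fold change, knockout over control, of each tested gene in 4 macrophage lists, with 95% intervals; red marks an adjusted p under 0.05 and the dashed line is the list's median. The medians are 0.24 for the resident markers, 0.16 for other resident genes, 0.55 for general macrophage markers and 0.52 for lipid-associated markers, and no gene of the first 2 panels is red.

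The resident markers were then set against the general markers within each library. In a second edgeR fit the summed counts of the 10 general markers took the place of the library size, so a value below 0 means that a gene rose less, or fell more, than the macrophage reference. All 9 tested resident markers were below 0, and 4 passed: Cd163 at -0.75 (adjusted p = 0.0315), Lyve1 at -0.68 (adjusted p = 0.022), Gas6 at -0.63 (adjusted p = 0.0118) and Mertk at -0.63 (adjusted p = 0.0288). Mrc1, Folr2, F13a1, Pf4 and Cbr2 lay between -0.35 and -0.22 and did not pass. In this fit 45.2% of all tested genes passed as lower, so 4 of 9 was near the share of genes in general. The median of all tested genes was -0.59 and that of the 9 markers -0.35, so a value below 0 was usual here. The call also depended on the reference. With Adgre1, Csf1r and Fcgr1 alone as reference, 0 of the 9 passed as lower in edgeR, against 0.232% of all genes; Cd163 was then at -0.51 (adjusted p = 0.273). With the general list less Cd68, an alternative chosen after the data had been seen, 2 of 9 passed against 28.3%. With the full reference it was 1 of 9 without control replicate 4, where 33.5% of all tested genes passed as lower, 1 without knockout replicate 2 (25.6%), 1 without knockout replicate 3 (34.4%) and 2 without knockout replicate 1 (31.7%). The share of all genes was thus lower in these fits too.

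In numbers of counts, Gas6 stood at 64.7, 71.7, 64.1 and 107 per 100 counts of the general markers in the control and at 52.3, 42.4, 50.5 and 52.9 in the knockout libraries. Mertk stood at 9.00, 7.81, 8.31 and 11.6 against 5.80, 4.55, 5.42 and 7.56. For these 2 genes the genotypes did not overlap, nor did they, in the same direction, for 39.6% of all tested genes. Cd163 stood at 12.9, 11.3, 15.6 and 12.3 in the control and at 7.16, 5.25, 5.57 and 13 in the knockout libraries. Here knockout replicate 4 lay among the controls, as it did for Lyve1, Mrc1, F13a1, Cbr2 and Pf4.

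**Figure D3:**
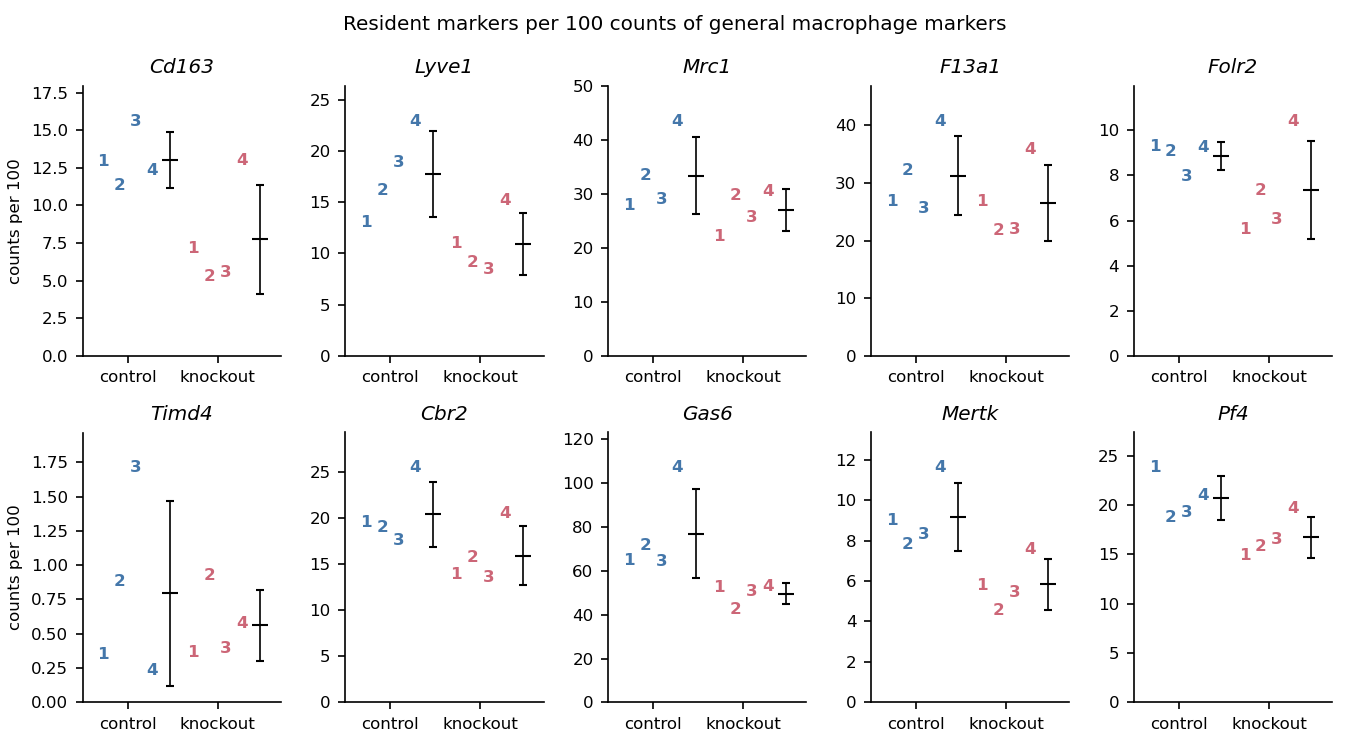
Counts of each resident marker per 100 counts of the 10 general macrophage markers, on a linear axis from 0; digits are replicate numbers (blue control, red knockout), and the bar is the mean and SD of 4 libraries. Gas6 and Mertk do not overlap between the genotypes, and the other markers do.

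Knockout replicate 4 stood apart within its group in the resident markers, though not in these alone. The lipid-associated markers summed to 15900 CPM there and to 13000, 11600 and 12000 CPM in knockout replicates 1 to 3. Pairs of knockout libraries that included it, the largest library, differed by 7.21 to 9.4 times sampling noise (chi-square per degree of freedom). Pairs without it differed by 4.61 to 6.61 times. Knockout replicate 4 held the highest value of 8 of the 9 tested markers, and control replicate 4 that of Gas6. The lowest values were spread over knockout replicate 2 (3 markers), control replicates 3 and 4 (2 each), and control replicate 2 and knockout replicate 3 (1 each). Summed over the 10 markers, the control libraries were at 829, 731, 763 and 798 CPM and the knockout libraries at 807, 798, 761 and 1060 CPM. The first 3 knockout libraries thus fell within the range of the controls. The summed general markers were at 400, 332, 367 and 271 CPM among controls and 505, 523, 494 and 516 CPM among knockouts, where replicate 4 was not the highest. The sum of the resident markers divided by that of the general ones was 2.07, 2.20, 2.08 and 2.94 in the control and 1.60, 1.53, 1.54 and 2.06 in the knockout libraries. Knockout replicate 4 was just below the lowest control in this ratio, and control replicate 4, the smallest library, was far above the rest. Per general macrophage count, 39.6% of all tested genes also lay lower in the knockout without overlap. The resident sum includes Gas6, at 222 to 291 CPM, which other cells make too, so the ratio is not a share of macrophages. Without knockout replicate 4 the median log2 fold change of the resident markers was 0.07 in place of 0.24, and 0 of 9 passed, as before, in edgeR.

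**Figure D4:**
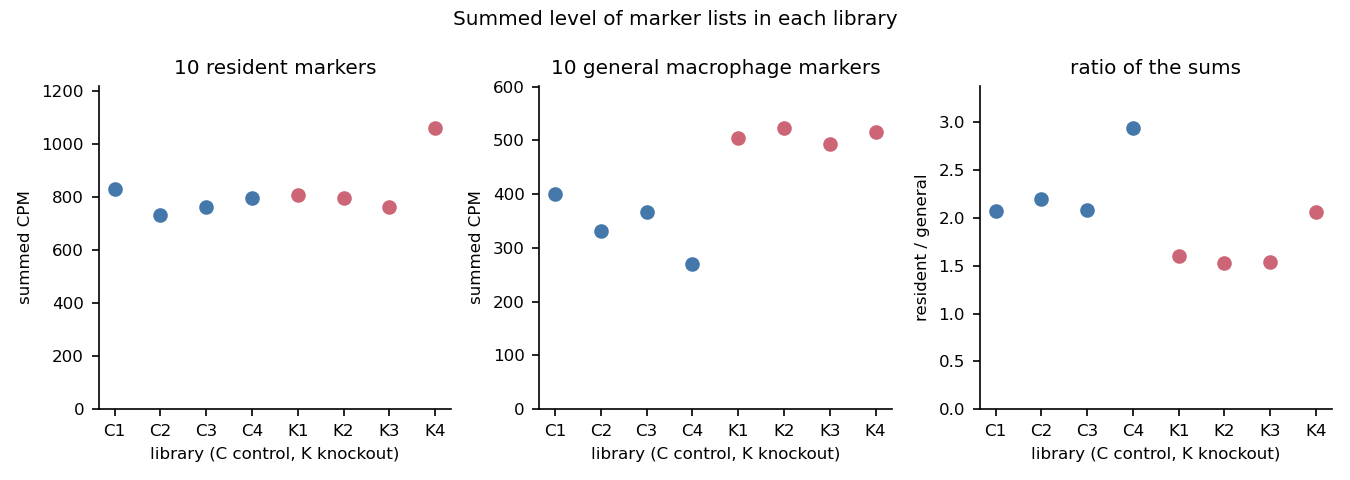
Summed CPM of the 10 resident markers (left) and the 10 general macrophage markers (middle) in each library, and the ratio of the sums (right), on linear axes from 0; 1 point is 1 library. The resident sum is 731 to 829 CPM in 7 libraries and 1060 CPM in knockout replicate 4, while the general sum is 271 to 400 CPM among controls and 494 to 523 CPM among knockouts.

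The genes whose pattern over the 8 libraries was most like that of the markers were Cog2, Palld, Mrpl50, Sept8 and Gspt1, taken from 12471 other genes. Likeness was the root-mean-square difference between scaled log2 CPM profiles, and it was 0.219, 0.259, 0.266, 0.321 and 0.341 for these 5. With 8 points and so many candidates this likeness carries little weight. Of the macrophage genes listed, Retnla ranked 8, at 0.417, and Cd209d and Cd209f ranked 48 and 49, at 0.521 and 0.526. Csf1r ranked 146 by this measure, at 0.643, and Cd68 ranked 3167, at 1.11.

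Read assignment was checked for the 10 genes in the GENCODE transcripts. Oligo-dT can prime on internal runs of A; the longest run was 21 bases in Mertk and 9 or fewer in the others. Lyve1, Mrc1, Folr2, Timd4, Gas6, Mertk and Pf4 shared no word of 31 bases with another gene of the table. Cbr2 shared 198 of its 1323 words with Gm11771. Cd163 shared words with 211 genes, the closest holding 22 of its 5488, and F13a1 shared at most 30 of 6706.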

How the data were processed

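RNA from epididymal fat of 4 control and 4 knockout samples was made into BRB-seq libraries, a 3′-end method primed with oligo-dT, per the labels' protocols. The table deposited by the authors holds estimated counts per gene, not normalized; 59.6% of values above 0 were whole. Salmon and GRCm38 are named in the submitters' processing notes; version, annotation and use of molecular identifiers are not given in the sources used here, nor is strand. Columns were matched to samples by the description label. Counts were rounded. Identifiers were matched without version to GENCODE M21 (GRCm38), 34652 of 34866 found; coordinates are from it.

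Genotypes were compared with edgeR 4.0.16 (R 4.3.3): robust quasi-likelihood F test, TMM factors, filterByExpr, Benjamini-Hochberg adjustment over all 12480 tested genes, threshold 0.05. CPM used TMM-scaled sizes. Log2 CPM used a prior count of 2. Intervals are 95% and, like the unadjusted p-values, not adjusted. A second fit replaced library size by the summed general macrophage counts; it treats that sum as exact. Exact permutation tests used scipy 1.17.1. In simulated data for this comparison (12246 genes) the test recovered 69.7% of 2-fold and 96% of 4-fold changes. Changes as small as those of the tested markers were not simulated. Spread between simulated libraries followed the trend over genes and not each gene's own.

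Alternatives were RLE factors, no low-count filter, DESeq2 1.42.0, the replicate number as a block and leaving out each library. Named genes are the 10 markers, Cyp19a1, genes of each list past the threshold or up to 2 with the smallest unadjusted p under 0.05, and the 5 most similar profiles; other genes were named after their values were seen. One gene of the other resident list is not reported here. Members and lists were chosen with earlier results of these data known. Pairs of libraries within a group differed by 4.48 to 9.4 times sampling noise (chi-square per degree of freedom), so none was taken as a duplicate.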

Additional observations from a re-analysis of the deposited data

Results flagged for a closer look

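The summed level of the 10 resident markers in knockout replicate 4 was 1060 CPM, against 761 to 807 CPM in the other 3 knockout libraries. Its gap to the nearest of them was 0.847 of the group's range, above Dixon's critical value for 4 samples. Of 28 groups of values examined, covering the 10 markers and 4 list sums in each genotype, this was the 1 such value, where chance gives about 1.4. In the same library the sum of 25 other resident genes was 4200 CPM, against 3180 to 3720 CPM in the other knockout libraries. A few abundant genes make up most of that sum, and the cells they came from were not tested. The lipid-associated markers summed to 15900 CPM there, against 11600 to 13000 CPM in the other knockout libraries. The sum of the general macrophage markers was 516 CPM there, within the range of its group.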

How the results depend on the processing

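No resident marker passed between the genotypes under RLE factors, no low-count filter, DESeq2, the replicate block or in any of the 8 fits without 1 library. The number of all genes past the threshold, 21, was 58 without the filter, 53 with DESeq2, 6 with the replicate block and 4 to 43 without 1 library. Markers above 0 numbered 5 to 7 and their median was 0.07 to 0.31 without 1 library. Fold changes near 0 changed sign without 1 library: Lyve1 (-0.3 to 0.04), Gas6 (-0.06 to 0.05), Mertk (-0.22 to 0.04) and Timd4 (-0.33 to 0.8). Relative to the general markers, 4 markers lower became 0 with Adgre1, Csf1r and Fcgr1 as reference, 2 without Cd68, and 1 to 4 without 1 library; F13a1 reversed to 0.03 with the first of these. The cause was not tested. Deviations of same-numbered libraries correlated at 0.25, -0.06, -0.01 and -0.24 for numbers 1 to 4. Only the libraries of number 1 matched each other best. These values do not settle whether same-numbered libraries were paired. With the replicate block 4 markers were again lower relative to the general markers, beside 39.2% of all tested genes. Timd4, at 1 to 14 counts, is limited by depth.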
